A study of Homo sapiens with 48 samples.

Results

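The 6 LCE1 genes, LCE1A to LCE1F, were taken by symbol from the deposited table of 19102 genes, and all 6 had a row. They were chosen by their FPKM in these libraries, in A382_P53 against A382_PCW and in each knockout against its non-targeting controls, so their own values are given as a description, with no test. LCE stands for late cornified envelope. The genes sit side by side in the epidermal differentiation complex, a stretch of chromosome 1 that also holds the genes of loricrin, involucrin, filaggrin, the small proline-rich proteins and many S100 proteins. LCE proteins are small and rich in cysteine, serine and glycine, and are cross-linked by transglutaminases into the cornified envelope late in the differentiation of epidermal keratinocytes. p53 is a transcription factor that arrests or kills stressed cells. LCE1 genes have been described elsewhere as p53 targets, with LCE1 proteins reported to bind the arginine methyltransferase PRMT5.

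The study sequenced polyadenylated RNA of A382, an established human glioblastoma cell line, and asked how subunits of the EP400/TIP60 chromatin complex bear on p53 target genes. In the induction experiment, 2 libraries came from cells with an inducible p53 vector (A382_P53) and 2 from cells with the control vector (A382_PCW), all collected at day 2 of doxycycline. The other 44 libraries came from cells infected by lentivirus with a guide RNA and collected at day 9: 2 for each of the non-targeting controls sgNeg1 to sgNeg4, 4 each for BRD8 and H2AZ from 2 guides with 2 replicates, and 2, with 1 per guide, for each of RUVBL1, RUVBL2, MORF4L1, MORF4L2, VPS72, MEAF6, GAS41, DMAP1, TRRAP, ING3, MRGBP, ACTL6A, TIP60 and EP400. Values are FPKM, fragment numbers divided by library depth and transcript length, and comparisons use log2(FPKM + 1). The table falls into 5 sections that were normalized apart, so each group was set beside the control of its own section. The columns labelled MEAF6 guide 2 and VPS72 guide 2 were identical and were left out, which leaves 46 libraries. Nothing says that replicates were separate cultures, so p-values may measure technical spread only.

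Of the genes targeted by guides, RUVBL1, RUVBL2 and BRD8 were each lower in their own knockout. Levels of the other targeted genes are not given here. RUVBL1 stood at 61.5 to 62.6 in sgNeg3 and 24.2 to 25.6 in its knockout, and RUVBL2 at 94.8 to 110.9 and 27.3 to 31.3. BRD8 stood at 13.3 to 13.6 in sgNeg1 and 5.19 to 6.39 in its 4 libraries. The log2 differences were -1.28 ± 0.16, -1.78 ± 0.22 and -1.09 ± 0.083 (SE, limma adjusted p at most 0.00126). At 1 FPKM a kilobase of transcript held 12.3 to 13.1 fragments in the induction libraries and 4.39 to 22.1 over all sections, as read from the steps between low values. Of 10 glial or neural progenitor markers, 3 were at 1 FPKM or more in both libraries of each group. All 10 together summed to 24.6 to 25.6 FPKM in A382_PCW and 24.8 to 25.5 in A382_P53. The 3 were SOX2, at 14.3 to 14.9 and 9.44 to 9.55, NES, at 8.53 to 8.75 and 1.55 to 1.88, and SLC1A3, at 1.43 to 1.91 and 12.5 to 13.5. GFAP reached 0.0453 FPKM and OLIG2 0.0325 in the 4 libraries, and S100B and FABP7 were listed at 0. Of 7 mesenchymal markers, 7 were at 1 FPKM or more in both A382_PCW libraries and 6 in both A382_P53 libraries, led by VIM.

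The LCE1 genes are near copies of each other, which matters both for reading their values and for what lies before them. Their coding sequences were 86 to 95.8% identical over the 15 pairs, with a median of 89.6%. LCE1B and LCE1C were the most alike pair and LCE1A and LCE1D the least alike. The RefSeq promoter table (GRCh38.p14, 250 bases before to 50 after each start) held 5 of the 6 genes, LCE1B being the one without an entry. Over the 250 bases before the start, those of LCE1C, LCE1D, LCE1E and LCE1F were 67.4 to 74.4% identical in each of 6 pairs, and that of LCE1A was 40 to 46.8% identical to them. The last 150 bases before the start of these 4 genes are printed 5′ to 3′ on the gene's strand, because they are alike in genes with very different levels in A382_P53. They lie at chr1:152806652-152806801 on the minus strand for LCE1C, and on the plus strand at chr1:152796571-152796720 for LCE1D, chr1:152786107-152786256 for LCE1E and chr1:152774990-152775139 for LCE1F. Capitals mark the longest run of bases common to all 4, GTCCTCTCATGCCCAGGC, and the heptamer ATAAAAG, a form of the TATA box.
LCE1C: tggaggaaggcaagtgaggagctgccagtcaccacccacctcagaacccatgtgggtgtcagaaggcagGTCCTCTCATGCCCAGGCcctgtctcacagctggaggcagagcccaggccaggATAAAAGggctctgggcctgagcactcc
LCE1D: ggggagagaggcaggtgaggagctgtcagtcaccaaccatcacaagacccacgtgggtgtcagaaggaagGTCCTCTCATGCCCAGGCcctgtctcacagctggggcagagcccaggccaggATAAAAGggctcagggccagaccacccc
LCE1E: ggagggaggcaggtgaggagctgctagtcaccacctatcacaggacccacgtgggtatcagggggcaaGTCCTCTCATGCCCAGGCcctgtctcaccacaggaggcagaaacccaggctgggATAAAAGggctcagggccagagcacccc
LCE1F: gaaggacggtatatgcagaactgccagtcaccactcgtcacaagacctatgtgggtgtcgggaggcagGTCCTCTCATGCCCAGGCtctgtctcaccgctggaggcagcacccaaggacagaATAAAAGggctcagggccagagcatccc

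The shared run starts 80 to 82 bases before the start in all 4 genes. It was found by comparing these 4 promoters, and on either strand it occurred in 4 of 35116 promoters of the table (0.0114%), those same genes. ATAAAAG begins 28 bases before each of the 4 starts and was found on either strand in 1637 promoters (4.66%). The p53 half-site consensus, searched by that name on both strands, was found in 2329 promoters (6.63%) and, of the 5 LCE1 promoters in the table, in that of LCE1E. The run and the heptamer do not overlap. A match is a string of letters and not a measured site, and no binding was measured in these libraries.

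After induction of p53, LCE1C and LCE1F went from 0 to among the most abundant messages of the cell, LCE1B reached a moderate level, LCE1E stayed under 1 FPKM, and LCE1A and LCE1D were listed at 0. LCE1C was listed at 0 in both A382_PCW libraries and stood at 416 and 394 FPKM in the A382_P53 libraries. Its difference of 8.66 on the log2(FPKM + 1) scale was the largest rise of the 19102 genes, and its level ranked 111 and 116 within the A382_P53 libraries. LCE1F was listed at 0 in both A382_PCW libraries and stood at 214 and 199 FPKM in A382_P53. Its difference of 7.70 was the second largest, and its level ranked 228 and 243. The third largest rise was that of CRYAB, a small heat shock protein, from 0.196 to 0.399 up to 174 to 179 FPKM, a difference of 7.10.

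LCE1B stood at 0.0789 and 0.161 FPKM in A382_PCW and at 28.5 and 25.9 in A382_P53. The log2 difference was 4.65, which placed it at rank 63 of the table. LCE1E stood at 0.0757 and 0.155 FPKM in A382_PCW and at 0.863 and 0.734 in A382_P53, a difference of 0.69 at rank 3289. For LCE1B, LCE1C, LCE1E and LCE1F, both A382_P53 libraries were above both A382_PCW libraries, so the groups of these 4 genes did not overlap. Over all 19102 genes, 36.1% had both A382_P53 libraries above both A382_PCW libraries. This is the contrast that chose the genes, and nothing is read from the count. LCE1A and LCE1D were at 0 in all 4 libraries.

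**Figure D1:**
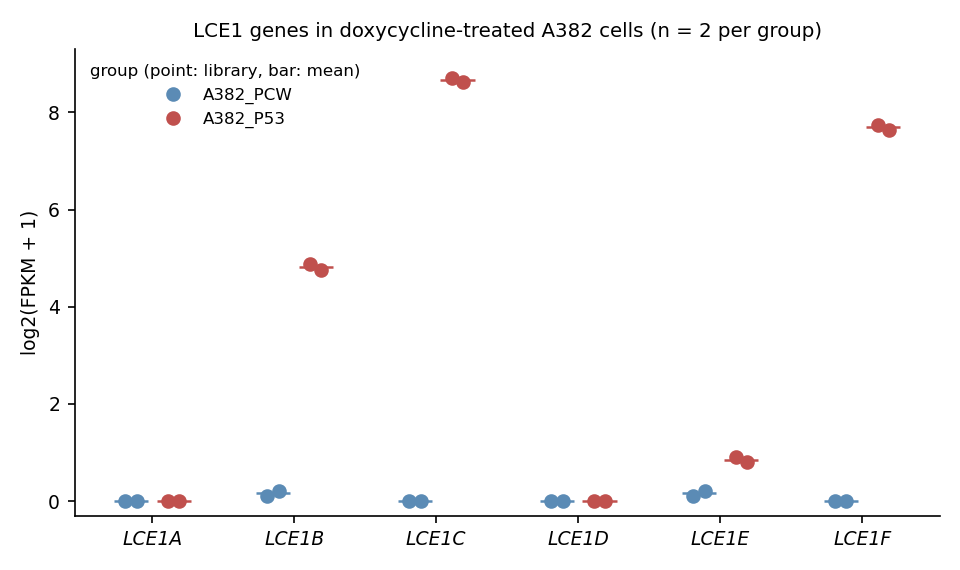
Level of each LCE1 gene as log2(FPKM + 1), with 1 point per library (2 A382_PCW in blue, 2 A382_P53 in red) and a bar at the group mean. LCE1C, LCE1F and LCE1B are far above their controls after induction, LCE1E is slightly above, and LCE1A and LCE1D lie at 0 in every library shown.

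The order in A382_P53 was LCE1C, LCE1F, LCE1B, LCE1E, and then LCE1A and LCE1D at 0. Each neighbouring pair among the first 4 was farther apart than the spread between the 2 libraries. FPKM is scaled by length, but the lengths the authors' tools used for these genes are not known here, so ratios between genes are approximate. LCE1C stood 1.94 and 1.98 times as high as LCE1F in the 2 libraries, and 14.6 and 15.2 times as high as LCE1B. LCE1F stood 7.52 and 7.70 times as high as LCE1B. LCE1C made up 63.1% and 63.5% of the summed LCE1 FPKM, so the shares differed little between the libraries.

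The values above 0 in A382_PCW rest on very few fragments. The smallest value above 0 of each of the 4 genes was taken as 1 fragment. Of the 21 other low values (under 20 fragments), 20 fell within 0.1 of a whole number, and the largest distance was 0.26. On this estimate LCE1B rested on 1 and 2 fragments in A382_PCW against 349 and 337 in A382_P53. LCE1E rested on 1 and 2 against 11 and 10. LCE1C rested on about 2173 and 2183 fragments in A382_P53, and LCE1F on about 1100 and 1086. Any zero of these genes allows up to 3 fragments by counting error, and genes used by every cell were also listed at 0 in some libraries, so a value is given as listed at 0 and no fold against it.

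Similarity between the members bears on how fragments were assigned to each. Of all 50-base windows of the GENCODE v29 transcript, 18.7% for LCE1C, 5.96% for LCE1B, 5.19% for LCE1F and 9.2% for LCE1E also occur in another LCE gene. The share was 18.2% for LCE1A and 19.9% for LCE1D. Within the coding sequence alone it was 36% for LCE1C, 26% for LCE1E, 23.9% for LCE1A, 21.1% for LCE1B, 17.6% for LCE1D and 5.19% for LCE1F. The remaining windows of each transcript occur in no other LCE gene. How the authors' tools treated fragments that match several genes is not given in the sources used here, so the split between members carries that uncertainty, as does a zero for LCE1A or LCE1D.

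LCE1C, LCE1F and LCE1B were at levels that few neighbours in the complex reached, while LCE1A and LCE1D were at 0 like most of them. Along the chromosome the order is LCE1F, LCE1E, LCE1D, LCE1C, LCE1B, LCE1A, so LCE1D at 0 lies between LCE1E under 1 FPKM and LCE1C at 416 and 394. From S100A10 to S100A1 the RefSeq gene table holds 63 protein-coding genes, 61 of them in the table and 45 of these not S100 genes. Of the 45, 4 were at 1 FPKM or more in both A382_P53 libraries, namely LCE1F, LCE1C, LCE1B and FLG, and 0 were in both A382_PCW libraries. There were 30 of the 45 listed at 0 in all 4 libraries. Of the 12 other LCE genes, 9 were at 0 in every library used. The exceptions were LCE5A, at 0 in A382_PCW and 0.125 and 1.05 FPKM in A382_P53, LCE2A, at 0 and 0.372 to 0.397, and LCE3D, with up to 0.190.

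**Figure D2:**
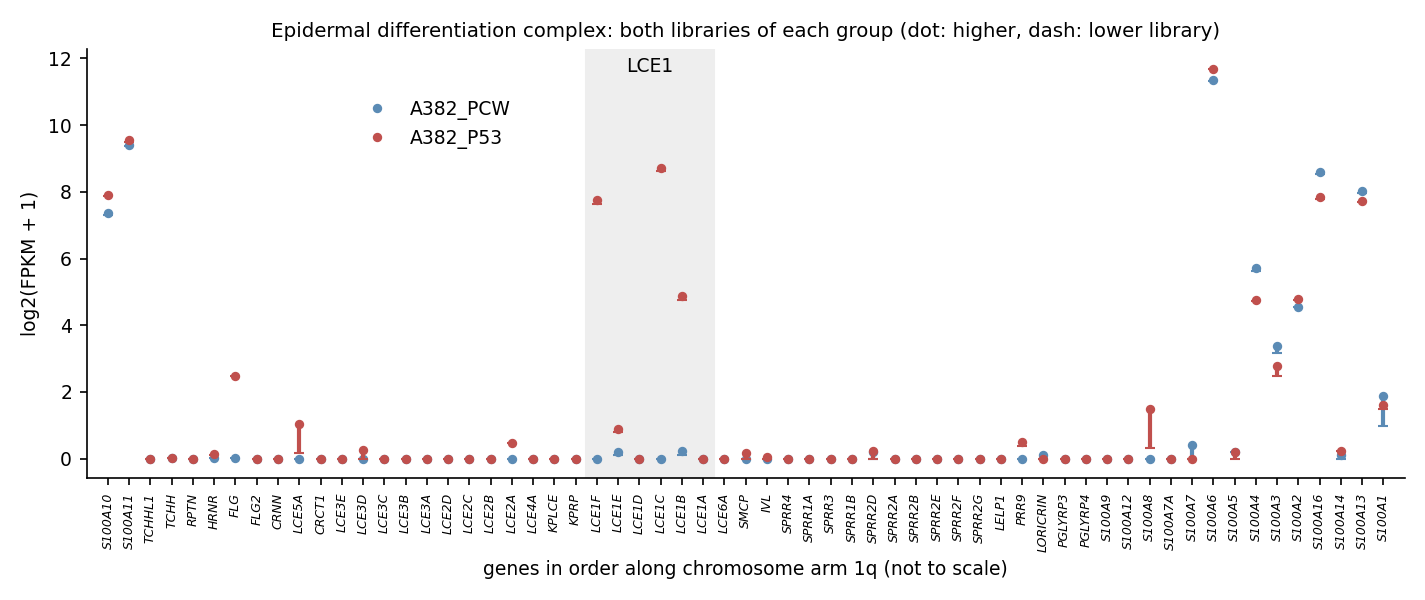
Genes of the epidermal differentiation complex in their order on chromosome 1 (x axis, evenly spaced), with the level as log2(FPKM + 1) on the y axis: the dot is the higher and the dash the lower of the 2 libraries, A382_PCW in blue and A382_P53 in red. LCE1F, LCE1C and LCE1B rise out of a stretch of genes at or near 0, and FLG is the next gene to leave 0. Some S100 genes at the ends, such as S100A6 and S100A11, are abundant in both groups, while others, such as S100A9 and S100A12, lie at 0.

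FLG, the gene of filaggrin, which bundles keratin filaments in the cornified layer, was the 1 gene of the 27 in the list of other complex genes that could be tested. It stood at 0.00598 to 0.0176 FPKM in A382_PCW and 4.51 to 4.58 in A382_P53, a log2 difference of 2.45. It passed the filter only through A382_P53, where it had to be higher, so no test is given, and it did not enter the test without either A382_P53 library or at a filter of 5 FPKM. IVL, the gene of involucrin, reached at most 0.0370 FPKM in the 4 libraries, and LOR, the gene of loricrin, was at 0 in both A382_P53 libraries. Of the 16 S100 genes, 9 were tested, 4 were higher and 4 lower, against 37.6% of all 12203 tested genes higher and 46.7% lower. S100A10, a partner of annexin A2, was higher by 0.56 ± 0.042 and S100A6 by 0.35 ± 0.043. S100A4 was lower, with a difference of -0.93 ± 0.054, and so was S100A16, with -0.74 ± 0.047. The median difference was 0.11 over the 9 S100 genes and -0.125 over all tested genes. That shift of all genes exceeds 0.1, so small differences are relative to it.

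Genes that build and cross-link the cornified envelope elsewhere in the genome were followed in a list of 32. There were 16 that passed the filter of 1 FPKM in 2 libraries, of which 14 were higher after induction and 2 lower, against 37.6% and 46.7% of all tested genes. Nothing is read from these counts, since 11 of the 16 were under 1 FPKM in both A382_PCW libraries and passed only through A382_P53, where they had to be higher. Among the 5 that were at 1 FPKM or more in a control, JUP, PERP and CSTA were higher and KLF4 and KRT10 lower. With either A382_P53 library left out, 3 were called higher, because a gene needs 2 libraries at 1 FPKM to enter the test. The 16 that did not pass include KRT1, at most 0.0954 FPKM, CASP14, at 0 in all 4 libraries, and DSG1, at most 0.0101.

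SFN, the gene of the protein 14-3-3 sigma and a known p53 target, was listed at 0 in both A382_PCW libraries. It stood at 65.1 to 71.1 FPKM in A382_P53, a log2 difference of 6.11. KLK5, a protease that sheds cells from the cornified layer, was listed at 0 and stood at 25.5 to 26.0, a difference of 4.74. EVPL encodes envoplakin, a plakin of the envelope, and went from 0.0115 to 0.0118 up to 23.7 to 25.4, a difference of 4.66. JUP encodes plakoglobin of desmosomes and adherens junctions and went from 7.94 to 8.46 up to 46.2 to 47.3, a difference of 2.38 ± 0.058. The limma adjusted p of JUP, which passed the filter through its control values too, was 5.25e-08. SFN, KLK5 and EVPL passed only through A382_P53, where they had to be higher, so no test is given for them. In SFN, KLK5 and EVPL every A382_P53 library was above every A382_PCW library, as in 36.1% of all genes of the table. Nothing is read from this, since it follows from the way they passed the filter.

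The transglutaminases, which cross-link LCE proteins in skin, are named here after their values were seen. They passed the filter only through A382_P53, where they had to be higher, so no test is given for them. TGM1 stood at 0.292 to 0.315 FPKM in A382_PCW and 3.88 to 4.02 in A382_P53, a difference of 1.93. TGM3 was listed at 0 and stood at 1.94 to 2.31, a difference of 1.64. TGM5 stood at 0 to 0.0318 and 1.25 to 1.26, a difference of 1.15. All 3 stayed below LCE1B in A382_P53. KLF4, a transcription factor of epidermal barrier formation, fell from 17.4 to 17.6 FPKM to 5.26 to 5.33, a difference of -1.56 ± 0.063. KRT10, a keratin of differentiating keratinocytes, differed by -0.26 ± 0.078 (limma adjusted p = 0.0161), a call that was lost when libraries were centred on their median. Without A382_PCW replicate 1, too, only 1 cornification gene was called lower, against 2 with all libraries.

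**Figure D3:**
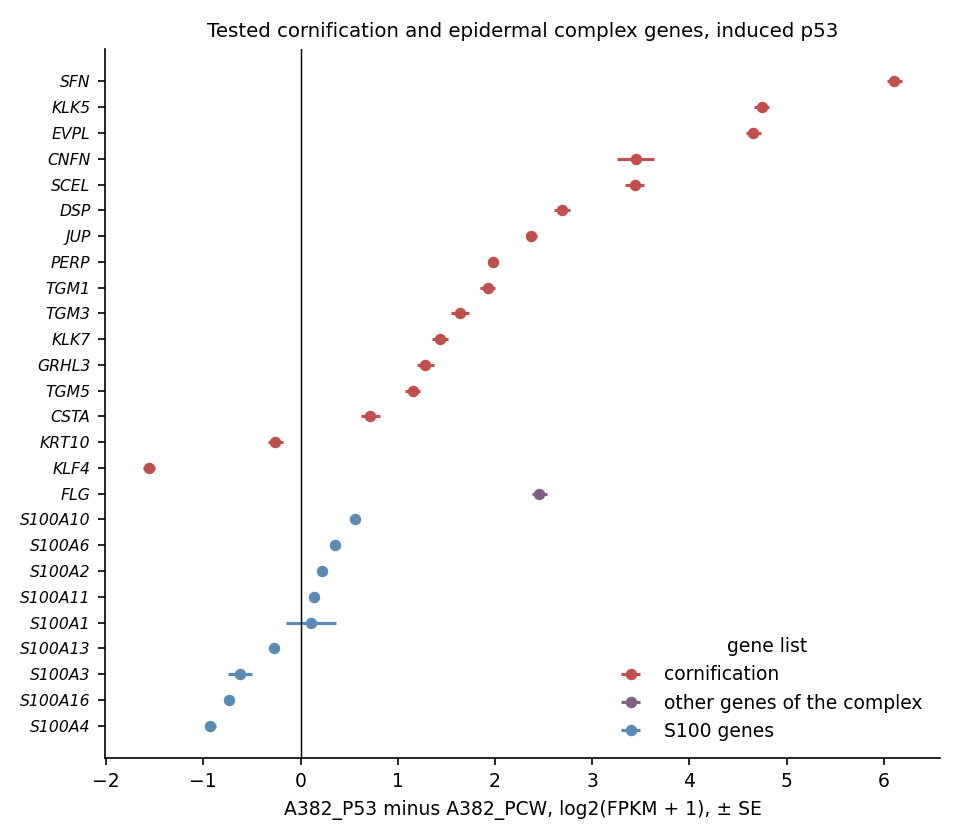
Difference between A382_P53 and A382_PCW on the log2(FPKM + 1) scale (x axis, bars are SE from limma, 2 libraries per group) for the tested genes of the cornification list (red), the other genes of the complex (purple) and its S100 genes (blue). SFN, KLK5 and EVPL lie farthest to the right, KRT10 and KLF4 are left of 0, and the S100 genes lie on both sides of it. Genes under 1 FPKM in both A382_PCW libraries, SFN, KLK5 and EVPL among them, entered only through A382_P53, where they had to be higher.

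Some keratinocyte markers were at 1 FPKM or more after induction and others at or near 0. Of 7 basal keratinocyte markers, 1 was at 1 FPKM or more in both A382_PCW libraries and 3 in both A382_P53 libraries. All 7 together summed to 28.0 to 28.3 and 70.9 to 73.6 FPKM. Most of that sum was ITGA6, an integrin subunit of many cell types, at 27.8 to 28.0 and 66.7 to 69.4. KRT15 stood at 1.66 to 1.73 and COL17A1 at 1.53 to 1.66 in A382_P53. KRT5 stood at 0 and 0.582 to 0.681, KRT14 at 0 and 0.0999 to 0.107, and TP63, a transcription factor of basal keratinocytes, at 0 and 0.0511 to 0.0879. Of 9 markers of differentiated keratinocytes, 1 was at 1 FPKM or more in both A382_PCW libraries and 3 in both A382_P53 libraries. All 9 together summed to 14.2 to 16.1 and 18.9 to 19.3. The 3 were KRT10, at 13.94 to 15.97 in A382_PCW and 11.98 to 12.62 in A382_P53, and FLG and TGM3, whose values are given above. KRT1, IVL, LOR, DSG1 and CASP14 were each under 0.1 FPKM in all 4. In bulk RNA, fewer cells with a gene on and less RNA per cell cannot be told apart.

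Known p53 targets set the scale of the response in the same libraries. Of 30 direct targets listed, all were tested, 26 were higher and 2 lower, against 37.6% and 46.7% of all tested genes, with a median difference of 0.89. CDKN1A, the inhibitor of cyclin-dependent kinases, stood at 251.5 ± 2.87 FPKM in A382_PCW and 799.7 ± 31.6 in A382_P53 (SD, n = 2 each), a difference of 1.66 ± 0.045. MDM2, which targets p53 for degradation, stood at 26.5 ± 1.77 and 140.7 ± 7.82, a difference of 2.36 ± 0.063. TP53I3, a quinone oxidoreductase, differed by 2.29 ± 0.047 and BTG2, an antiproliferative gene, by 2.11 ± 0.051. The limma adjusted p of these 4 was at most 7.83e-08. CCNG1 was lower, with -1.27 ± 0.055, and so was GADD45A, with -0.27 ± 0.046.

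PRMT5, its cofactors, PRMT1 and Sm protein genes were followed in a list of 9. All 9 were tested, 2 were higher and 6 lower, against 37.6% and 46.7% of all tested genes, with a median of -0.90. PRMT5 itself stood at 57.6 to 62.4 FPKM in A382_PCW and 71.0 to 71.8 in A382_P53, a difference of 0.25 ± 0.052 (limma adjusted p = 0.00302). COPRS, a cofactor that guides PRMT5 to histones, was higher by 0.46 ± 0.068. PRMT1, another arginine methyltransferase, stood at 269.6 to 273.5 and 112.8 to 114.8, a difference of -1.25 ± 0.040. SNRPD1 and SNRPD3, spliceosomal Sm proteins that PRMT5 methylates, differed by -1.68 ± 0.057 and -1.06 ± 0.054. CLNS1A, which hands Sm proteins to PRMT5, differed by -0.90 ± 0.047. The limma adjusted p of PRMT1, SNRPD1, SNRPD3 and CLNS1A was at most 1.63e-06.

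In the guide libraries the LCE1 genes were at or near 0 throughout, and the highest values were in the RUVBL2 and RUVBL1 knockouts. All 6 genes were at 0 in the 8 non-targeting libraries and in every library of BRD8, H2AZ, EP400, TIP60, ACTL6A, MRGBP, ING3, DMAP1 and GAS41. Of 42 guide libraries used, 10 had any LCE1 value above 0, and 7 of these lay among the 10 libraries of the sgNeg3 section. The other 3 were TRRAP guide 1 with LCE1E at 0.0630 FPKM, MEAF6 guide 1 with LCE1B at 0.0674 and VPS72 guide 1 with LCE1E at 0.115, each the value of 1 fragment. LCE1A and LCE1D were at 0 in all 42.

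RUVBL1 and RUVBL2 are paired AAA+ ATPases that belong to this complex and to other assemblies. RUVBL2 guide 1 had LCE1B at 0.316 FPKM, LCE1C at 0.886, LCE1E at 0.0607 and LCE1F at 0.151. RUVBL2 guide 2 had LCE1B at 0.363, LCE1C at 0.851, LCE1E at 0.116 and LCE1F at 1.15. RUVBL1 guide 1 had LCE1B at 0.196 and LCE1F at 0.156, and RUVBL1 guide 2 had LCE1B at 0.593 and LCE1C at 0.348. LCE1B was the highest of the 6 with both RUVBL1 guides, while LCE1C was highest with RUVBL2 guide 1 and LCE1F with RUVBL2 guide 2.

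MORF4L1 and MORF4L2 are related chromodomain subunits. MORF4L1 guide 1 had LCE1C at 0.167 FPKM, and guide 2 had LCE1C at 0.320 and LCE1F at 0.163. MORF4L2 guide 2 had LCE1C at 0.619, and MORF4L2 guide 1 had all 6 genes at 0. Both sgNeg3 libraries had all 6 at 0.

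**Figure D4:**
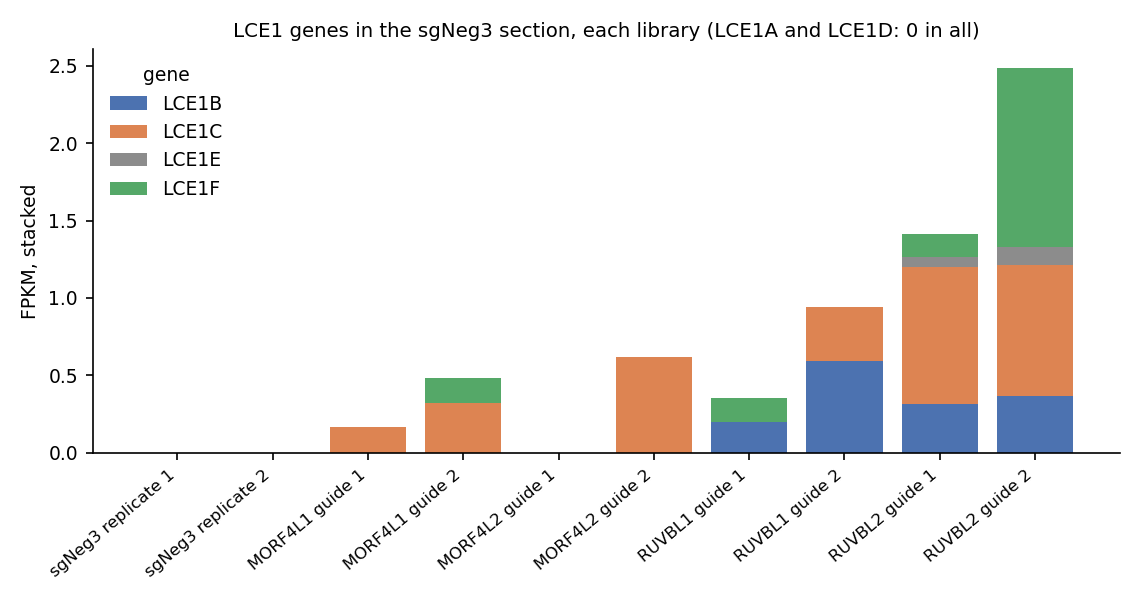
FPKM of LCE1B, LCE1C, LCE1E and LCE1F stacked for each library of the sgNeg3 section (x axis); LCE1A and LCE1D are 0 throughout. The sgNeg3 libraries and MORF4L2 guide 1 are at 0, and the tallest bars are RUVBL2 guide 2 at 2.48 and RUVBL2 guide 1 at 1.41.

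Summed over the 6 genes, the level was 0 in both sgNeg3 libraries, 0.167 and 0.482 FPKM with MORF4L1 guides, 0 and 0.619 with MORF4L2 guides, 0.352 and 0.940 with RUVBL1 guides and 1.41 and 2.48 with RUVBL2 guides. These sums rest on an estimated 1 and 3, 0 and 3, 4 and 10, and 13 and 22 fragments. The difference from sgNeg3 on the log2(FPKM + 1) scale was 0.70 for RUVBL1 and 1.54 for RUVBL2, against 9.02 for induced p53. RUVBL1, RUVBL2 and MORF4L1 share the sgNeg3 libraries as their control. Both RUVBL2 libraries were above every other library of the section, while the ranges of RUVBL1, MORF4L1 and MORF4L2 overlapped. LCE1B was above both controls in both RUVBL1 libraries, as were 27.7% of all genes, and LCE1B, LCE1C, LCE1E and LCE1F were so in both RUVBL2 libraries, as were 27.0% of all genes. No member reached 1 FPKM in 2 libraries of any guide section, so 0 of 6 entered a test there, against 3 of 6 in the induction section.

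The zeros of the BRD8 section carry a limit of their own. Between 17 and 20 single-exon genes reached 1 FPKM in each sgNeg1 and BRD8 library, against 170 to 223 in each other library. The GENCODE models of LCE1A, LCE1B, LCE1C and LCE1F have a single exon, and those of LCE1D and LCE1E have 2. The part this plays in the zeros of the first 4 was not tested. None of the 6 genes was above its controls in the BRD8 libraries, as were 19.6% of all genes. In the H2AZ section the depth was lower, at 4.39 to 7.55 fragments per kilobase at 1 FPKM.

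Known p53 targets were higher in these knockouts while the LCE1 genes stayed at or near 0. In RUVBL1, 19 of 30 tested targets were higher and 0 lower, against 12.3% of all tested genes higher and 15.5% lower. In RUVBL2, 22 were higher and 1 lower, against 13.5% and 19.9%. Of the 30, 1 was under 1 FPKM in both sgNeg3 libraries and entered the test only through knockout libraries. It was called higher in both knockouts, and nothing is read from it. Of the other 29, 18 were higher in RUVBL1, and 21 were higher and 1 lower in RUVBL2. In BRD8, 15 of 26 tested were higher and 3 lower, against 24.2% and 21.7%. The median difference of the targets was 0.64 in RUVBL1, 0.76 in RUVBL2 and 0.28 in BRD8, beside -0.02, -0.05 and 0.02 over all tested genes. RUVBL1 and RUVBL2 share their controls. With 1 RUVBL1 or sgNeg3 library left out, the RUVBL1 count over the whole list was 11 to 14.

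GDF15, a secreted stress cytokine, was higher by 2.68 ± 0.20 in RUVBL1, 2.19 ± 0.20 in RUVBL2 and 0.92 ± 0.087 in BRD8, where the LCE1 genes were at 0. BTG2 was higher by 1.19 ± 0.12 in RUVBL1 and 1.25 ± 0.12 in RUVBL2. CYFIP2, an actin regulator, was higher by 1.12 ± 0.12 and 1.32 ± 0.12. SESN2, a stress-induced inhibitor of mTORC1 signalling, was higher by 1.15 ± 0.13 in RUVBL1, and MDM2 by 1.08 ± 0.11 in RUVBL2. In BRD8, GADD45A was higher by 1.17 ± 0.11, MDM2 by 0.77 ± 0.080 and SESN2 by 0.75 ± 0.092. The limma adjusted p of each of these was at most 0.000854. After induction of p53, BTG2, CYFIP2, SESN2 and MDM2 were higher too, and GADD45A was lower. GDF15 was not called there. It stood at 328.4 to 330.1 FPKM in A382_PCW and 290.6 to 342.3 in A382_P53, a difference of -0.062 ± 0.074 (limma adjusted p = 0.457).

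Few cornification genes could be tested in the knockouts. In RUVBL1 and RUVBL2, 5 of the 32 were tested, 0 were higher and 1, JUP, was lower, against 12.3% and 15.5% of all tested genes in RUVBL1 and 13.5% and 19.9% in RUVBL2, while an unadjusted p under 0.05 was reached by 3 and 1 of the 5. JUP stood at 15.0 to 15.5 FPKM in sgNeg3, 4.95 to 5.28 in RUVBL1 and 3.61 to 3.82 in RUVBL2, with differences of -1.41 ± 0.11 and -1.79 ± 0.11 (limma adjusted p = 0.000218 and 5.62e-05). In BRD8, 4 were tested, 2 were higher and 1 lower, against 24.2% and 21.7% of all tested genes. CSTA and KRT10 were higher by 1.42 ± 0.11 and 0.51 ± 0.071 and JUP differed by -0.98 ± 0.095 (limma adjusted p at most 0.000359). JUP thus had opposite signs after p53 induction and in these 3 knockouts. The difference between these contrasts was not tested, since they stand in sections normalized apart.

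A few genes outside the family had the pattern most like it. Likeness was Pearson's r with the summed LCE1 level, each library taken as its deviation from the controls of its section. Libraries of a group share their target and those of a section their controls. Over all 46 libraries, the 5 highest of 12933 genes were KLHL30 (r = 0.996), CYP21A2 (0.993), LCN15 (0.991), RNASE7 (0.991) and PLEK (0.990). The A382_P53 libraries and the guide libraries both entered this ranking, and the share of each in it was not tested. KLHL30 stood at 0.380 to 0.410 FPKM in A382_PCW and 25.2 to 26.3 in A382_P53. RNASE7, an antimicrobial ribonuclease of skin, was listed at 0 and stood at 5.08 to 5.55. LCN15, a lipocalin, stood at 0.136 to 0.265 and 30.8 to 31.9, and PLEK, the gene of pleckstrin, at 0.0278 to 0.227 and 29.4 to 30.6. CYP21A2, a steroid hydroxylase with a near-identical pseudogene that makes its value uncertain, stood at 0 to 0.0820 and 7.21 to 8.08. In the guide libraries none of these 5 exceeded 0.813 FPKM, and each had its highest guide value with a RUVBL2 guide. Nothing is read from this, since the RUVBL2 libraries took part in choosing the 5 genes.

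Over the 42 guide libraries alone, the 5 highest of 11753 genes were S100A7 (r = 0.882), ZFYVE27 (0.873), SORCS2 (0.867), PIPOX (0.864) and CLCN2 (0.860). S100A7, which encodes psoriasin, an antimicrobial protein of the same complex, stood at 0 and 0.288 FPKM in sgNeg3, 0.790 and 1.195 in RUVBL1 and 1.79 and 2.68 in RUVBL2. It was picked for its likeness over these same libraries, so no test is given. In A382_P53 it was listed at 0 in both libraries, unlike LCE1C and LCE1F. SORCS2, a sorting receptor, stood at 0.0485 and 0.0568 in sgNeg3, 0.800 and 1.09 in RUVBL1, 1.32 and 1.28 in RUVBL2, and at 8.71 to 9.55 in A382_P53. PIPOX, a peroxisomal oxidase, stood at 1.60 to 2.50 in the RUVBL1 and RUVBL2 libraries and at 0.0647 to 0.173 in A382_P53. So of these 3, SORCS2 was high in both settings, and S100A7 and PIPOX in the knockouts.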

How the data were processed

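The deposited data are 1 table of FPKM values, with 19102 genes in rows and 48 libraries in columns. Per the submitters' processing notes, the authors used the build hg19 and the tools Cuffdiff, Cufflinks and TopHat2, with no version or role stated. Libraries were strand-specific, per the labels' protocols. Column names gave each library's sample, and 0 columns were of other samples. Each of the 5 sections was analysed apart. Steps between low values gave each library's depth. Fragment numbers are FPKM multiplied by that depth, scaled so that each gene's smallest value above 0 is 1 fragment. Such numbers are estimates and cover counting error only.

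Members, gene lists and comparisons were chosen with earlier results of these data known. Members got no test. Other genes that reached 1 FPKM in 2 or more libraries of their section were compared on log2(FPKM + 1) with limma 3.58.1 in R 4.3.3 (1 level per target, empirical Bayes with trend, two-sided), with p-values adjusted by Benjamini-Hochberg across the section's genes and a threshold of 0.05. The fit held no term for guide, so libraries of different guides counted as replicates of their target. It was first tested on simulated data. Log2 differences of low genes are understated, and errors beside them are SE. All fits of knockouts were planned. Calls are given for RUVBL1 and RUVBL2, which had the highest LCE1 sums, and for BRD8, a subject of the study, and those of the other knockouts are not used here. Named genes were the members, up to 4 called genes per list with the smallest adjusted p, CDKN1A and MDM2, and the 5 genes most like the LCE1 sum. Others were named after their values were seen. Sequence identities came from global alignments. Alternatives changed the pseudocount, the filter, the scaling, the controls, the replicate block and single libraries. The check of 1 targeted gene is not reported here.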

Additional observations from a re-analysis of the deposited data

How the results depend on the processing

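The summed LCE1 difference was above 0 under each alternative run in induced p53, RUVBL1 and RUVBL2. Nothing is read from this sign, since these contrasts chose the genes. In RUVBL1 and RUVBL2 the controls sum to 0, so no pseudocount, omitted library or other set of non-targeting controls could reverse it. Of the alternative values for the summed difference and for the counts, 231 stayed within 1.5 times the count or 1 SD and 46 moved. With a pseudocount of 0.1 or 0.5 in place of 1, the summed LCE1 difference was 10.94 or 9.77 in induced p53 (9.02 as reported), 2.78 or 1.15 in RUVBL1 (0.70) and 4.31 or 2.26 in RUVBL2 (1.54). So the size of these differences depends on the pseudocount. With 1 library left out they ran from 8.93 to 9.12, 0.44 to 0.96 and 1.27 to 1.80.

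A filter of 5 FPKM left 9 cornification genes higher in induced p53 and 0 other genes of the complex higher, and in BRD8 gave 1314 genes higher, 1020 lower and 1 cornification gene higher. No filter gave 2 other complex genes higher in induced p53 and 2 cornification genes lower in BRD8. Centring on the median changed which direction held more genes, with 5113 higher and 4975 lower in induced p53 (4591 and 5702 as reported) and 1943 and 2014 in BRD8 (2047 and 1838). It gave 1 cornification gene lower in induced p53 and 2 in BRD8. With 1 library left out, induced p53 had 3 to 14 cornification genes higher, 1 to 2 lower and 0 to 1 other complex genes higher. The lowest counts of higher genes came without A382_P53 replicate 1 or 2, where genes that need both libraries no longer pass the filter, and the count of 1 lower came without A382_PCW replicate 1. RUVBL1 then had 328 to 767 genes higher (1366 with all libraries), 531 to 1220 lower (1711) and 11 to 14 p53 targets higher. RUVBL2 had 583 to 638 higher (1493) and 1052 to 1223 lower (2205). BRD8 had 1168 to 2086 higher (2047), 1125 to 1762 lower (1838), 1 to 2 cornification genes lower and 1 to 4 p53 targets lower. Beyond the fewer libraries, the cause was not tested.

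Replicate numbers do not pair the libraries: deviations of same-numbered libraries correlated at 0.042 in induced p53 and -0.026 to 0.029 in the BRD8 section. With the replicate block 4581 genes were higher and 5682 lower in induced p53, and 1919 and 1743 in BRD8. The block was not run for H2AZ, whose calls are not used here. Values of LCE1 genes under 1 FPKM rest on a few fragments, which limits any order among the knockouts.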
